A study of Homo sapiens with 16 samples.

Results

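The 47 genes described here are the hypoxia-inducible factors, their regulators and a set of their classical targets, together with the enzymes and transporters of glycolysis. They were chosen by gene symbol in a table of raw RNA-seq counts that holds 57500 genes, and all 47 were present and had enough counts to be tested among 15566 genes. The study used MDA-MB-231, a human triple-negative breast cancer cell line, engineered to carry a short hairpin RNA that doxycycline switches on. One line carries a hairpin against AKAP2, a scaffold protein that binds protein kinase A (shAKAP2), and the other a scrambled control hairpin (shScramble). The 4 groups, of 4 libraries each, were shAKAP2 cells with doxycycline, shAKAP2 cells without it, shScramble cells with doxycycline and shScramble cells without it. The drug was given in both lines, so the shScramble pair measures what doxycycline and a hairpin without the AKAP2 target change. Libraries of 1 group are labelled as biological replicates, with no word on separate cultures, so the p-values reflect only how these libraries spread, which may be technical. Dose and duration of the drug and the letters of the hairpin are not analysed here, and each line carries 1 hairpin.

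Cells sense oxygen through prolyl hydroxylases (EGLN1, EGLN2 and EGLN3), which mark the factors HIF1A and EPAS1 for destruction by the VHL ubiquitin ligase. When oxygen is scarce the marking stops, HIF1A or EPAS1 pairs with ARNT, and the pair binds a short core sequence in its target genes. Those targets include the angiogenic signal VEGFA, the pH regulator CA9 and much of the pathway that turns glucose into lactate, which many breast cancer cells run even with oxygen. HIF1A and EPAS1 are controlled mostly at the protein level, which RNA-seq does not measure.

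Library totals ranged from 24482997 to 37472525 counts. The check of the targeted gene gave 0 to 3 AKAP2 counts per library in shAKAP2 cells with doxycycline, against 36 to 53 without it. In shScramble cells AKAP2 had 22 to 87 counts per library with doxycycline and 26 to 55 without. Mitochondrially encoded genes took 1.02% to 2.04% of counts in shAKAP2 libraries with doxycycline and 1.86% to 2.38% without it, against 2.2% to 3.62% over both shScramble groups. ESR1, the oestrogen receptor gene whose product triple-negative tumours lack, had no count in 3 of the groups, and the 12 markers of the line and of epithelium summed to 3638 to 4512 CPM, the usual unit of counts relative to library size, here scaled by TMM. In bulk RNA such as this, fewer cells of a type and less RNA per cell cannot be told apart. The shScramble libraries numbered replicate 1, with and without doxycycline, stood apart from their groups. Many but not all of the hypoxia genes were high in them, as described further on. Each comparison is therefore given with and without these libraries.

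With the AKAP2 hairpin induced, more of these genes fell than rose. In shAKAP2 cells with doxycycline against the same cells without it, 3 of the 47 genes rose and 14 fell, at an edgeR quasi-likelihood p under 0.05 after Benjamini-Hochberg adjustment over all genes tested. The background was 28.3% of all genes tested called in either direction, 13.1% higher and 15.2% lower. The genes that rose were ADM, SLC2A3 and SLC16A1. The genes that fell were HIF1A, ARNT, VEGFA, STC1, CA9, ANKRD37, PLOD1, PLOD2, SLC2A1, HK2, PFKL, PFKP, ENO2 and LDHA. In 6 members every library with doxycycline was above every one without it, and in 23 it was below, beside 18.4% and 18.1% of all genes tested. The median log2 fold change over the 47 genes was -0.15, beside 0.00 over all genes tested. Without the shScramble replicate 1 libraries, which are in neither group compared but share the filter, the scaling and the estimate of spread, 5 genes rose and 20 fell, where 39.4% of all genes tested were called. The genes added were KDM3A and TXNIP on the higher side and EPAS1, EGLN1, CA12, BNIP3L, PFKFB3 and ENO1 on the lower side.

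**Figure D1:**
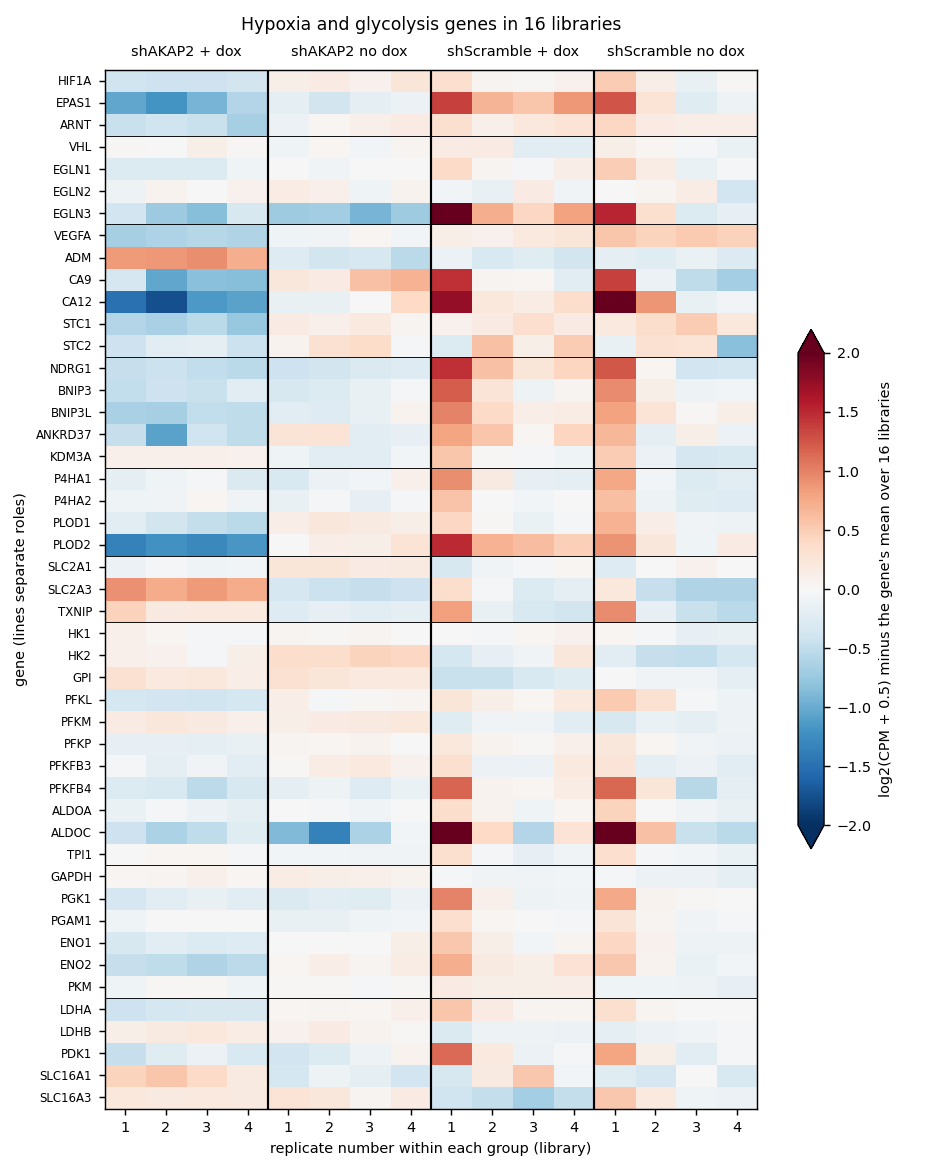
Levels of the 47 genes (rows, grouped by role) in the 16 libraries (columns, grouped as labelled). Colour gives log2(CPM + 0.5) minus the gene's mean over all libraries; the shAKAP2 libraries with doxycycline are low for PLOD2, CA9 and CA12 and high for ADM and SLC2A3, and both shScramble replicate 1 columns are high for ALDOC, CA9 and EGLN3.

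The 3 transcription factor genes were all lower in every shAKAP2 library with doxycycline than in any without it, and 2 of them passed the test. HIF1A (ENSG00000100644, chr14:61695513-61748259, GRCh38), the oxygen-regulated subunit, had 423, 417, 417 and 433 CPM in the shAKAP2 libraries with doxycycline, against 604, 622, 589 and 659 CPM without it. In shScramble cells it had 696, 576, 567 and 592 CPM with doxycycline and 792, 613, 503 and 564 CPM without. The shAKAP2 libraries with doxycycline were therefore below all the other libraries, and the shScramble groups overlapped. The fall was 0.55 on the log2 scale in shAKAP2 cells (log2 fold change -0.55, SE 0.100, edgeR adjusted p = 0.000313), against -0.02 (SE 0.0999) in shScramble cells, and the difference between those effects was -0.53 (SE 0.141, edgeR adjusted p = 0.0133).

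ARNT (ENSG00000143437, chr1:150809705-150876768), the constitutive partner of HIF1A and EPAS1, was also lowest in shAKAP2 cells with doxycycline. It had 28.6, 29.6, 28.8 and 24.6 CPM in shAKAP2 libraries with doxycycline, against 36.2, 40.5, 41.9 and 44.1 CPM without it. In shScramble cells ARNT had 49.1, 42, 45.5 and 47.7 CPM with doxycycline and 52.6, 44.1, 43.3 and 43.2 CPM without. The shAKAP2 libraries with doxycycline were below all others, and the shScramble groups overlapped. Its log2 fold change was -0.54 in shAKAP2 cells (SE 0.0887, edgeR adjusted p = 9.18e-05) and 0.01 in shScramble cells (SE 0.0872), and the effects differed by -0.55 (SE 0.124, edgeR adjusted p = 0.00365).

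EPAS1 (ENSG00000116016, chr2:46293667-46386703), which encodes HIF-2 alpha, gave a different call with and without the shScramble replicate 1 libraries. It had 20.2, 18.1, 21.9 and 27.9 CPM in shAKAP2 libraries with doxycycline, against 36.7, 32.5, 36.7 and 38.7 CPM without it, with no overlap. It had 109, 68.2, 62.5 and 77 CPM in shScramble cells with doxycycline and 101, 51.2, 35.5 and 39.1 CPM without. The log2 fold change of -0.72 in shAKAP2 cells did not pass (SE 0.292, edgeR adjusted p = 0.0854), nor did the difference of -1.19 between the lines' effects (SE 0.406, edgeR adjusted p = 0.0577). Both passed, at -0.72 and -1.45, without the shScramble replicate 1 libraries. Between lines with doxycycline EPAS1 was lower in shAKAP2 cells by a log2 fold change of -1.85 (SE 0.295, edgeR adjusted p = 0.000191).

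Of the 4 oxygen-sensing genes, 0 passed in shAKAP2 cells by edgeR, limma-voom or DESeq2, and 0 had an unadjusted edgeR p under 0.05. VHL, the recognition subunit of the ligase that destroys HIF factors, had 56.1, 54.8, 59.6 and 56.2 CPM in shAKAP2 libraries with doxycycline, against 51.8, 56.9, 52.9 and 57.5 CPM without it. In shScramble cells VHL had 62.1, 61.8, 47.5 and 47.7 CPM with doxycycline and 59.5, 56.4, 54.2 and 50.1 CPM without. The 4 groups overlapped throughout, and the log2 fold changes lay between -0.01 and 0.06 in all 5 comparisons. EGLN1 was the most abundant prolyl hydroxylase per length of exon, at 11.3 RPKM (CPM per kilobase of exon) in shAKAP2 cells with doxycycline, where EGLN2 had 1.61 RPKM and EGLN3 0.590 RPKM. The level of EGLN2 is uncertain, since 32.4% of its exon length overlaps other annotated genes on the same strand. EGLN3, itself a HIF target, was lower in shAKAP2 than in shScramble cells both with doxycycline (log2 fold change -1.78, SE 0.420, edgeR adjusted p = 0.00341) and without it (-1.43, SE 0.421, edgeR adjusted p = 0.0307). Those differences were -1.31 and -0.82, and both passed, without the 2 shScramble replicate 1 libraries. The call without doxycycline was lost, at -0.82, when the untreated replicate 1 alone was left out, and it was lost in 7 of 25 alternatives.

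**Figure D2:**
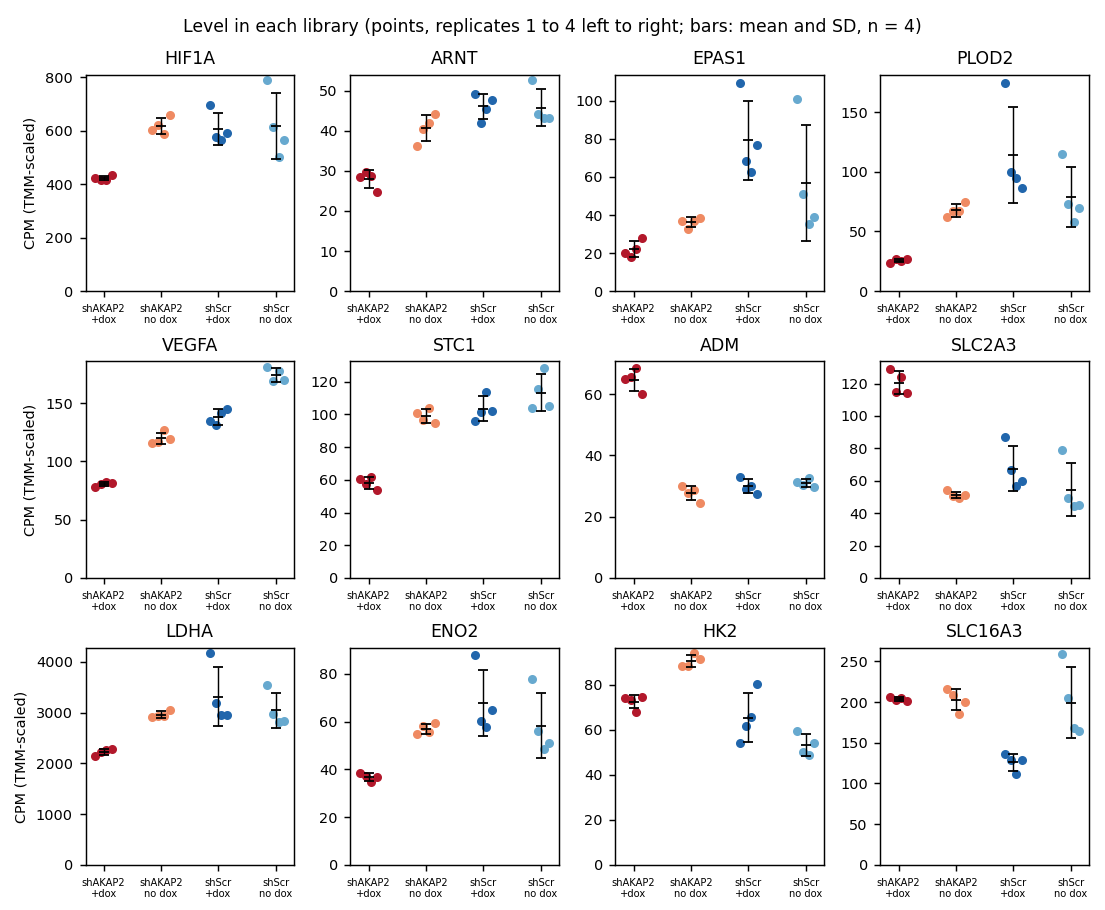
CPM of 12 of the genes in every library, with the mean and SD of each group of 4; axes start at 0. PLOD2, LDHA and ENO2 are below all other libraries in shAKAP2 cells with doxycycline, while ADM and SLC2A3 are above them.

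Among the 6 secreted and pH-regulating targets, ADM (ENSG00000148926, chr11:10304680-10307397), which encodes the vasodilator peptide adrenomedullin, was the gene that rose, while VEGFA, STC1 and CA9 fell. ADM had 64.8, 65.5, 68.5 and 59.9 CPM in shAKAP2 libraries with doxycycline, against 29.9, 27.7, 28.6 and 24.6 CPM without it. In shScramble cells it had 33, 29, 30.1 and 27.6 CPM with doxycycline and 31.2, 30.2, 32.7 and 29.6 CPM without. Every shAKAP2 library with doxycycline was well above all the others, which overlapped. The rise was 2.34-fold (log2 fold change 1.22, SE 0.0795, edgeR adjusted p = 3.81e-10), against -0.05 in shScramble cells (SE 0.0793), and the effects differed by 1.27 (SE 0.112, edgeR adjusted p = 7.59e-08).

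VEGFA (ENSG00000112715, chr6:43770184-43786487), the main signal for blood vessel growth, was ordered over all groups. It had 77.8, 80.5, 82.6 and 81.2 CPM in shAKAP2 libraries with doxycycline, against 116, 117, 127 and 119 CPM without it. In shScramble cells VEGFA had 135, 131, 142 and 145 CPM with doxycycline, against 181, 169, 178 and 170 CPM without. No group overlapped another, so VEGFA was lower with doxycycline in both lines and lower in the shAKAP2 line in both conditions. With doxycycline the log2 fold change was -0.57 in shAKAP2 cells (SE 0.0578, edgeR adjusted p = 2.26e-07) and -0.33 in shScramble cells (SE 0.0572, edgeR adjusted p = 0.00321). The effects differed by -0.24 (SE 0.0811, edgeR adjusted p = 0.0473), a call that was lost in 16 of the 24 alternatives tried.

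STC1, a secreted glycoprotein that regulates calcium and phosphate, fell in the shAKAP2 line. It had 60.3, 57.4, 61.8 and 53.6 CPM in shAKAP2 libraries with doxycycline, against 101, 96.7, 104 and 94.4 CPM without it. In shScramble cells STC1 had 95.9, 102, 114 and 102 CPM with doxycycline and 104, 115, 129 and 105 CPM without. The shAKAP2 libraries with doxycycline were below all others. In shAKAP2 cells the log2 fold change was -0.76 (SE 0.0770, edgeR adjusted p = 2.22e-07), and it differed from that in shScramble cells by -0.63 (SE 0.108, edgeR adjusted p = 0.00031).

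CA9 and CA12 encode carbonic anhydrases of the cell surface, and CA9 is the standard marker of hypoxia in tumours. CA9 was near the limit of detection at 0.371, 0.0367, 0.113 and 0.11 CPM in shAKAP2 libraries with doxycycline, against 0.78, 0.73, 1.14 and 1.28 CPM without it. The groups did not overlap, and the log2 fold change was -2.65 (SE 0.822, edgeR adjusted p = 0.0207). That call was lost under some alternatives. Of the exon length of CA9, 38.5% overlaps ARHGEF39 on the opposite strand. Reads of both genes may be mixed there, since no strand setting is named. In shScramble cells CA9 ranged from 0.437 to 2.53 CPM with doxycycline and from 0.183 to 2.34 CPM without. The latter range overlapped that of shAKAP2 cells with doxycycline. For CA9 the difference between the lines' effects did not pass with all libraries, and passed without the shScramble replicate 1 libraries. CA12 had means of 7.15 CPM with and 19.5 CPM without doxycycline in shAKAP2 cells, also without overlap, and did not pass (log2 fold change -1.45, SE 0.555, edgeR adjusted p = 0.0695). STC2, a relative of STC1, had a log2 fold change of -0.86 that did not pass.

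Of the 5 intracellular targets 1 passed in shAKAP2 cells (20%, beside 28.3% of all genes tested). ANKRD37, an ankyrin repeat protein, had 0.806 to 1.58 CPM with and 1.86 to 2.8 CPM without doxycycline, a log2 fold change of -0.82 (SE 0.281, edgeR adjusted p = 0.0326). This call was lost under some alternatives, and 35.2% of its exon length overlaps UFSP2 on the opposite strand. BNIP3 and BNIP3L, which mark mitochondria for removal, had log2 fold changes of -0.20 and -0.44, NDRG1, a stress-induced cytoplasmic protein, -0.15 and KDM3A, a histone demethylase, 0.24, and none of the 4 passed. Between lines with doxycycline, 4 of the 5 were lower in shAKAP2 cells (80%), beside 21.5% of all genes tested. The log2 fold changes were -1.25 for NDRG1, -0.85 for BNIP3, -1.03 for BNIP3L and -1.32 for ANKRD37. Those values, without the shScramble replicate 1 libraries, were -0.92, -0.48, -0.80 and -1.19, and all 4 passed, but without the doxycycline-treated replicate 1 alone BNIP3, at -0.48, did not.

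The collagen hydroxylases modify proline and lysine in collagen. In shAKAP2 cells both lysyl hydroxylases fell and neither prolyl hydroxylase passed. Of the 4, only PLOD2 passed the test of the difference between the lines' effects with all libraries. PLOD2 (ENSG00000152952, chr3:146069440-146163653), whose product prepares collagen for stable cross-links, had 23.8, 26.5, 25.1 and 27.2 CPM in shAKAP2 libraries with doxycycline, against 61.8, 67.4, 67.3 and 74.9 CPM without it. In shScramble cells PLOD2 had 174, 100, 95.2 and 86.6 CPM with doxycycline and 115, 72.7, 58.2 and 69.4 CPM without. Of the genes that passed, only PLOD2 and CA9 fell by more than 2-fold; PLOD2 was 2.64-fold lower, at a log2 fold change of -1.40 (SE 0.223, edgeR adjusted p = 0.000234). In shScramble cells the log2 fold change was 0.53 (SE 0.214, edgeR adjusted p = 0.429), and the effects differed by -1.93 (SE 0.309, edgeR adjusted p = 0.000496). The shScramble effect was 0.49 and passed without the shScramble replicate 1 libraries, and the difference was -1.90.

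PLOD1 had 71.5, 64.7, 59.8 and 56.8 CPM in shAKAP2 libraries with doxycycline, against 90.9, 97.4, 94.4 and 90.3 CPM without it. Its log2 fold change was -0.56 (SE 0.152, edgeR adjusted p = 0.0101), and in shScramble cells it had 112, 85, 75.8 and 81.5 CPM with doxycycline and 135, 91.4, 78.8 and 77.6 CPM without. The log2 fold change of PLOD1 in shScramble cells was -0.12, and the difference between the lines' effects did not pass with all libraries. P4HA1 and P4HA2, the prolyl hydroxylases, had log2 fold changes of -0.05 and 0.05 in shAKAP2 cells, and their groups overlapped.

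**Figure D3:**
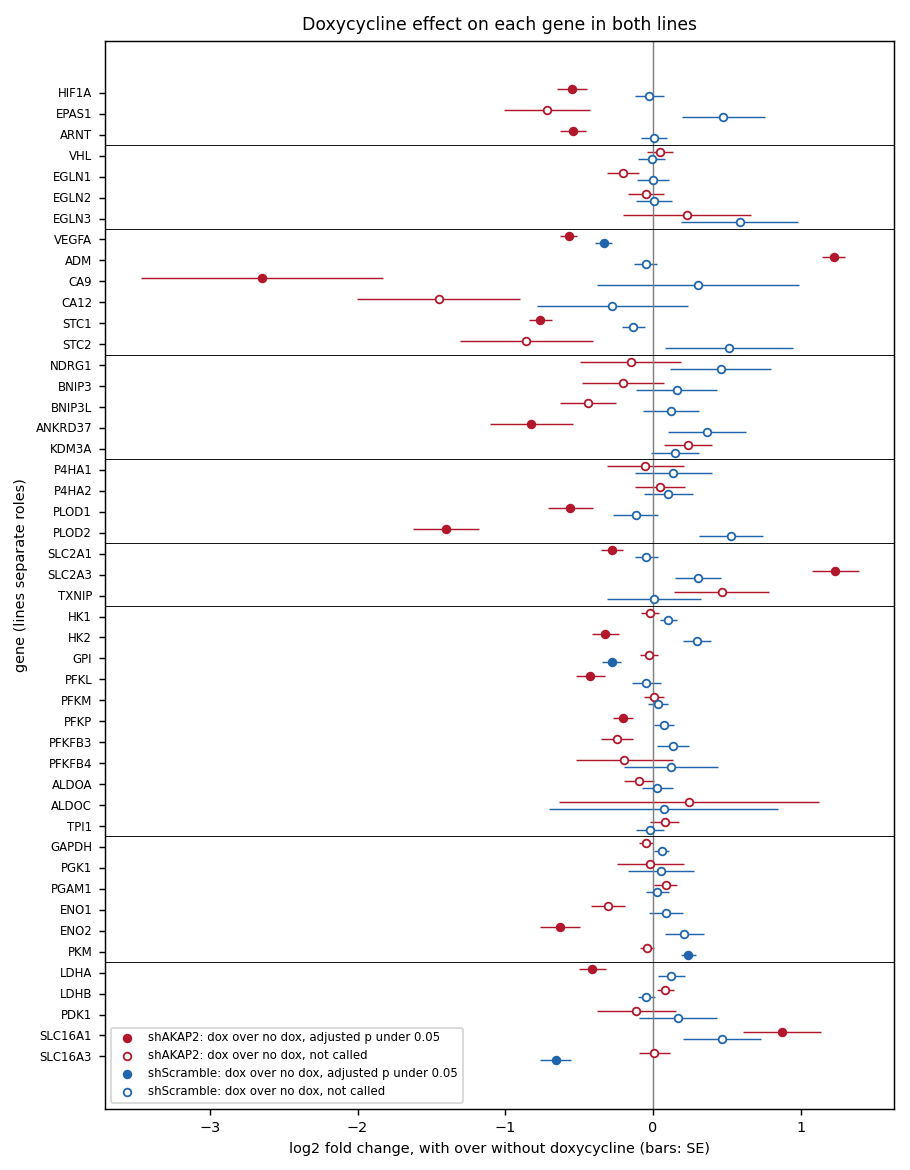
Log2 fold change of each gene, with over without doxycycline, in shAKAP2 cells (red) and in shScramble cells (blue), with SE bars. Filled points have an adjusted p under 0.05: 17 genes in shAKAP2 cells, 14 of them lower, and 4 genes in shScramble cells.

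The promoters of 4 of these genes are shown because their RNA moved in different ways: ADM rose, CA9 and PLOD2 fell, and ALDOC, an aldolase, was the gene that most separated the shScramble replicate 1 libraries together with CA9. Each runs from 250 bases before to 50 after the start site annotated by RefSeq (GRCh38.p14), on the strand of the gene: ADM at chr11:10304823-10305122, plus strand, CA9 at chr9:35673678-35673977, plus strand, PLOD2 at chr3:146161135-146161434, minus strand and ALDOC at chr17:28576846-28577145, minus strand. Capitals mark the core letters of the hypoxia response element, ACGTG or GCGTG, on either strand, where CACGTG reads as ACGTG on both strands and counts on both.
ADM: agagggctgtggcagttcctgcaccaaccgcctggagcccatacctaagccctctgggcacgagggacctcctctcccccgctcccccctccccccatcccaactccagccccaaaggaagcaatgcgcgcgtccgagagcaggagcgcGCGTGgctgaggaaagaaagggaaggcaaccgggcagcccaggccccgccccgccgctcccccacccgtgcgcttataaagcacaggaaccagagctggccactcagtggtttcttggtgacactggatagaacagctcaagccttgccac
CA9: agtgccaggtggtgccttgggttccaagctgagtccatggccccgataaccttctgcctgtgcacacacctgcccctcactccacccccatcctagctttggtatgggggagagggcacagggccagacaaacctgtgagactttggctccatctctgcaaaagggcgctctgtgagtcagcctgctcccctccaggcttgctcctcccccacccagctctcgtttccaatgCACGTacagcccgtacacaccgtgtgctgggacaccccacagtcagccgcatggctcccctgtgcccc
PLOD2: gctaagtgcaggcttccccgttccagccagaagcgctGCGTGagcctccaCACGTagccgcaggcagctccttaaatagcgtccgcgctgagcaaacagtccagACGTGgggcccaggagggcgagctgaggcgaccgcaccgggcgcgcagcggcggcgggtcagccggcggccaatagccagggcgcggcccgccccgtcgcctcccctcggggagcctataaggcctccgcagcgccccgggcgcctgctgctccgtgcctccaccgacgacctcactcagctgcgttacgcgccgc
ALDOC: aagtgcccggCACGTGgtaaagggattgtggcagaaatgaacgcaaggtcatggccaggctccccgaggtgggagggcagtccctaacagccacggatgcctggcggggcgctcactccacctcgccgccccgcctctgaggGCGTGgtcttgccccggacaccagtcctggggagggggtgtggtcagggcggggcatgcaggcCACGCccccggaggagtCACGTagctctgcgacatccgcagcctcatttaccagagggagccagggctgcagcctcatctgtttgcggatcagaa
ADM and CA9 hold 1 match each, PLOD2 holds 3 and ALDOC 5. Of the 40 members with an entry, 36 (90%) held at least 1 match at any of their starts, beside 69.3% of 10667 tested genes with an entry. Counted by promoter, 48 of 70 promoters of members (68.6%) held a match, beside 48.4% of all promoters. That last set is not limited to the genes tested, whereas all members were tested. At 3 or more matches the shares were 25% of members and 18.9% of tested genes. BNIP3 and LDHA held 6 matches each and HK2 6 at 1 of its starts. A match is a description of letters only. VHL, VEGFA, STC1, NDRG1, BNIP3L, SLC2A3 and SLC16A1 had no entry.

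Glucose transporters moved in opposite directions. SLC2A3 (ENSG00000059804, chr12:7919230-7936275), the high-affinity transporter GLUT3, had 129, 115, 124 and 114 CPM in shAKAP2 libraries with doxycycline, against 54, 50.5, 49.3 and 51.4 CPM without it. It had 87, 66.8, 56.7 and 59.7 CPM in shScramble cells with doxycycline and 79, 49.6, 44.7 and 45.1 CPM without. All shAKAP2 libraries with doxycycline were above the other libraries. The rise was 2.35-fold (log2 fold change 1.23, SE 0.159, edgeR adjusted p = 1.58e-05), against 0.30 in shScramble cells (SE 0.157, edgeR adjusted p = 0.592), and the effects differed by 0.93 (SE 0.223, edgeR adjusted p = 0.00765).

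SLC2A1 (ENSG00000117394, chr1:42925375-42959176), the main transporter GLUT1, had 482, 514, 492 and 499 CPM in shAKAP2 libraries with doxycycline, against 615, 614, 587 and 590 CPM without it. In shScramble cells it had 418, 494, 514 and 537 CPM with doxycycline and 437, 518, 554 and 517 CPM without. Its log2 fold change in shAKAP2 cells was -0.28 (SE 0.0755, edgeR adjusted p = 0.00888), and the difference from shScramble cells did not pass (-0.23, SE 0.107, edgeR adjusted p = 0.15). Per exon length SLC2A1 remained the more abundant: 105 RPKM in shAKAP2 cells with doxycycline against 127 without it, where SLC2A3 had 19.6 RPKM with doxycycline and 8.33 without. TXNIP, which holds back glucose uptake, had 311 to 377 CPM with and 229 to 246 CPM without doxycycline in shAKAP2 cells, and its log2 fold change of 0.46 did not pass (SE 0.320, edgeR adjusted p = 0.318). It passed at 0.46 without the shScramble replicate 1 libraries, and the difference between the lines passed at 0.35.

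Among the 11 enzymes of upper glycolysis, 3 fell and 0 rose in shAKAP2 cells, which is 27.3% called, close to the 28.3% of all genes tested. HK2, the inducible hexokinase, had 74.1, 73.1, 68 and 74.3 CPM in shAKAP2 libraries with doxycycline, against 88.2, 88.3, 93.9 and 91.4 CPM without it. In shScramble cells HK2 had 54.1, 61.5, 65.6 and 80.4 CPM with doxycycline and 59.6, 50.1, 48.9 and 53.9 CPM without. In shAKAP2 cells the log2 fold change was -0.32 (SE 0.0932, edgeR adjusted p = 0.0129) and 0.30 in shScramble cells (SE 0.0937, edgeR adjusted p = 0.18), and the effects differed by -0.62 (SE 0.132, edgeR adjusted p = 0.00235). HK1, the constitutive hexokinase, was more abundant per exon length, at 39.6 RPKM in shAKAP2 cells with doxycycline and 40.2 without it, where HK2 had 11.9 and 14.9 RPKM. The log2 fold change of HK1 was -0.02 and did not pass.

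Phosphofructokinase, the step that commits glucose to glycolysis, has 3 genes here. PFKL had 64.3, 62.7, 62.1 and 63.9 CPM in shAKAP2 libraries with doxycycline, against 90.3, 80.6, 83 and 85.3 CPM without it. In shScramble cells PFKL had 97.2, 89.4, 83.8 and 93.7 CPM with doxycycline and 118, 101, 79.9 and 76.6 CPM without. Its log2 fold change was -0.42 (SE 0.101, edgeR adjusted p = 0.00335), and the difference from shScramble cells did not pass (-0.38, SE 0.143, edgeR adjusted p = 0.0725). PFKP, the most abundant form per exon length at 47.3 RPKM with and 54.5 RPKM without doxycycline, fell by 0.20 on the log2 scale (SE 0.0684, edgeR adjusted p = 0.0297), a call lost under some alternatives. For PFKP the difference from shScramble cells did not pass with all libraries. PFKM had a log2 fold change of 0.01 and did not pass. PFKFB3 and PFKFB4, which make the activator of phosphofructokinase, had -0.24 and -0.20 and did not pass, although every library with doxycycline was below every one without it.

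The other upper enzymes had small differences in shAKAP2 cells. GPI, ALDOA and TPI1, which carry glucose phosphate to the triose phosphates, had log2 fold changes of -0.03, -0.09 and 0.08, and ALDOC had 0.24. None of the 4 passed, and the SE of ALDOC was 0.880. ALDOA shares 55.6% of its exon length with other annotated genes, so its level is uncertain.

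In lower glycolysis 1 of 6 genes fell (16.7% called, below the 28.3% of all genes tested). ENO2, an enolase named for neurons and induced by HIF, had 38.3, 37.2, 34.7 and 36.8 CPM in shAKAP2 libraries with doxycycline, against 54.7, 58.2, 55.6 and 59.3 CPM without it. In shScramble cells ENO2 had 88, 60.1, 57.7 and 65 CPM with doxycycline and 77.9, 55.8, 48.4 and 51.1 CPM without. The shAKAP2 libraries with doxycycline were below all others. The log2 fold change was -0.63 (SE 0.134, edgeR adjusted p = 0.00148), and it differed from the 0.21 of shScramble cells by -0.84 (SE 0.189, edgeR adjusted p = 0.00388). ENO1, the main enolase, had 507 RPKM with and 625 RPKM without doxycycline, where ENO2 had 8.59 and 13.3 RPKM. ENO1 libraries did not overlap either, and its log2 fold change of -0.30 narrowly did not pass (SE 0.114, edgeR adjusted p = 0.0553).

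GAPDH, PGK1, PGAM1 and PKM, the remaining enzymes of lower glycolysis, had log2 fold changes of -0.05, -0.02, 0.09 and -0.04 in shAKAP2 cells, and none passed. PKM, the pyruvate kinase, differed between the lines instead. It had 2787, 3019, 3011 and 2800 CPM in shAKAP2 libraries with doxycycline and 3014, 2997, 2928 and 2996 CPM without it. In shScramble cells PKM had 3301, 3210, 3199 and 3242 CPM with doxycycline, against 2790, 2776, 2765 and 2641 CPM without. The shScramble groups did not overlap and the shAKAP2 groups did. The shScramble log2 fold change was 0.24 (SE 0.0486, edgeR adjusted p = 0.0137), and the effects differed by -0.28 (SE 0.0688, edgeR adjusted p = 0.0074).

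LDHA (ENSG00000134333, chr11:18394388-18408425), the lactate dehydrogenase subunit that favours lactate, fell. It had 2139, 2228, 2272 and 2274 CPM in shAKAP2 libraries with doxycycline, against 2910, 2940, 2936 and 3054 CPM without it. In shScramble cells LDHA had 4166, 3193, 2952 and 2953 CPM with doxycycline and 3551, 2968, 2820 and 2828 CPM without. The shAKAP2 libraries with doxycycline were below all others. The log2 fold change was -0.41 (SE 0.0917, edgeR adjusted p = 0.00199), the difference from shScramble cells was -0.53 (SE 0.130, edgeR adjusted p = 0.00647), and both passed without the shScramble replicate 1 libraries. LDHB, the other subunit, had a log2 fold change of 0.08 that did not pass, so per exon length LDHA and LDHB stood at 359 and 245 RPKM with doxycycline, against 477 and 231 RPKM without it. The level of LDHB is uncertain, since 33.4% of its exon length overlaps another annotated gene on the same strand.

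Lactate transporters also parted. SLC16A1, which encodes MCT1, was scarce at 2.14, 2.35, 2.03 and 1.68 CPM in shAKAP2 libraries with doxycycline, against 1.02, 1.31, 1.18 and 0.983 CPM without it. It had 1.05, 1.7, 2.31 and 1.37 CPM in shScramble cells with doxycycline and 1.13, 1.03, 1.42 and 1.06 CPM without. The rise of 0.87 (SE 0.264, edgeR adjusted p = 0.017) was lost under some alternatives, and its difference from shScramble cells did not pass (0.41, SE 0.373, edgeR adjusted p = 0.512). SLC16A3, the HIF-induced exporter MCT4, was the more abundant per exon length, at 22.7 RPKM against 0.386 RPKM for SLC16A1 in shAKAP2 cells with doxycycline.

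SLC16A3 changed with doxycycline in the shScramble line. It had 207, 203, 205 and 202 CPM in shAKAP2 libraries with doxycycline and 216, 209, 186 and 200 CPM without it. In shScramble cells it had 136, 129, 111 and 129 CPM with doxycycline, against 259, 206, 168 and 165 CPM without. The shScramble groups did not overlap and the shAKAP2 groups did. The log2 fold change was 0.01 in shAKAP2 cells (SE 0.106) and -0.66 in shScramble cells (SE 0.107, edgeR adjusted p = 0.00208), and the effects differed by 0.67 (SE 0.151, edgeR adjusted p = 0.00388). PDK1, which keeps pyruvate out of mitochondria, had log2 fold changes of -0.11 and 0.17 in shAKAP2 and shScramble cells, and neither passed.

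The 3' untranslated regions (3' UTRs) of 7 members hold the 7-base word GAACACA, and they are shown because 5 of the 14 members that fell are among them. An earlier analysis of these data drew attention to this word, so its link to falling genes is not independent of them. Each line gives 29 bases read 5' to 3' on the gene's strand in the longest annotated 3' UTR (GENCODE release 29, GRCh38), with the word in capitals.
ARNT (chr1:150811185-150811213, minus strand): tgtctgttatcGAACACAttcagtgataa
CA12 (chr15:63322791-63322819, minus strand): gtactctgctaGAACACAggatgcttctg
ANKRD37 (chr4:185400151-185400179, plus strand): gatccatttaaGAACACAtgtatttacat
PLOD1 (chr1:11974972-11975000, plus strand): ggccagaggcgGAACACAcctttatggct
PLOD2 (chr3:146070176-146070204, minus strand): agttactaaggGAACACAcaaagaattac
PGK1 (chrX:78127135-78127163, plus strand): tactttttgtaGAACACAagactctacta
LDHA (chr11:18408141-18408169, plus strand): gtcactataggGAACACAgatttttgaga
The word stood in the 3' UTR of 5 of 14 members that fell (35.7%), namely ARNT, ANKRD37, PLOD1, PLOD2 and LDHA. It stood in 0 of 3 that rose and in 2 of 30 not called (6.67%), CA12 and PGK1. Over all genes tested with a 3' UTR it stood in 30.9% of 2170 that fell, 5.74% of 1915 that rose and 9.89% of 8747 not called. The median 3' UTR of those sets had 1867, 1374 and 1275 bases, and that of the members 1210, 2044 and 1294. The shares take no account of length. HIF1A, VEGFA, STC1 and ENO2 fell and hold no copy in that region. ANKRD37 holds its copy in a short 3' UTR of 224 bases, and LDHA in one of 1144 bases.

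In shScramble cells with doxycycline against the same cells without it, 1 of the 47 genes rose and 3 fell, where 1.08% of all genes tested were called, 0.559% higher and 0.52% lower. PKM rose, and VEGFA, SLC16A3 and GPI fell. The same 4 were the members whose libraries did not overlap, 1 above and 3 below, beside 2.29% and 2.15% of all genes tested. GPI, which converts glucose phosphate to fructose phosphate, had 204, 203, 224 and 235 CPM in shScramble libraries with doxycycline, against 277, 266, 265 and 246 CPM without it. In shAKAP2 cells GPI had 343, 318, 322 and 304 CPM with doxycycline and 346, 330, 319 and 318 CPM without. Its shScramble log2 fold change was -0.28 (SE 0.0630, edgeR adjusted p = 0.028). With the fit restricted to the shScramble groups none of the 4 passed, and without the replicate 1 libraries 8 genes rose and 3 fell, where 6.36% of all genes tested were called. The genes added on the higher side were EPAS1 (0.73), EGLN3 (0.72), NDRG1 (0.65), PLOD2 (0.49), HK2 (0.45), SLC2A3 (0.40) and ENO2 (0.24), each a log2 fold change.

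Markers of other cell types moved in the same comparison. The 10 blood cell markers summed to 122 to 180 CPM in shScramble libraries with doxycycline and 77.1 to 101 CPM without, most of it from LAPTM5, with CD3E at 0 in both groups. Of the 7 blood cell markers with enough counts to test, 5 rose in shScramble cells (71.4%, beside 1.08% of all genes tested): LAPTM5 (log2 fold change 0.85), CD53 (4.32), FCER1G (2.58), PTPRC (2.62) and TYROBP. The median log2 fold change over the 7 was 2.58. CD53 averaged 0.928 CPM with doxycycline and 0.0460 CPM without, and PTPRC 1.49 and 0.232 CPM. For the difference between the lines' doxycycline effects 6 of the 7 were lower (85.7%, beside 10.5% of all genes tested), with a median of -2.82. Without doxycycline 4 of the 7 were higher in shAKAP2 than in shScramble cells (57.1%, beside 8.65% of all genes tested). With doxycycline in shAKAP2 cells 2 of the 7 fell and 0 rose (28.6%, beside 28.3% of all genes tested called and 15.2% lower). The 9 fibroblast and muscle markers summed to 47.9 to 72.1 CPM in shScramble libraries with doxycycline and 27 to 48.3 CPM without. In shAKAP2 cells the blood cell sums were 48.6 to 65.2 CPM with doxycycline and 71.6 to 80.9 CPM without, and the fibroblast and muscle sums 21.2 to 24.5 CPM and 23.2 to 35.1 CPM. The 5 endothelial markers summed to at most 13.9 CPM in any library. Their part in the changes of hypoxia and glycolysis genes was not tested.

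The test of the difference between the lines' doxycycline effects called 3 of the 47 genes higher and 10 lower, where 18% of all genes tested were called, 7.53% higher and 10.5% lower. ADM, SLC2A3 and SLC16A3 were on the higher side. HIF1A, ARNT, VEGFA, STC1, ANKRD37, PLOD2, HK2, ENO2, PKM and LDHA were on the lower side. SLC16A3 and PKM passed with doxycycline in shScramble cells and did not pass in shAKAP2 cells. The median difference over the 47 genes was -0.28, beside 0.00 over all genes tested. Without the shScramble replicate 1 libraries 5 genes were higher and 24 lower, where 30.6% of all genes tested were called. Among those added were EPAS1 (-1.45), CA9 (-3.45), CA12 (-1.40), NDRG1 (-0.81), BNIP3L (-0.53), PFKL (-0.48) and ENO1 (-0.38) on the lower side, and TXNIP (0.35) and GPI (0.19) on the higher side.

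**Figure D4:**
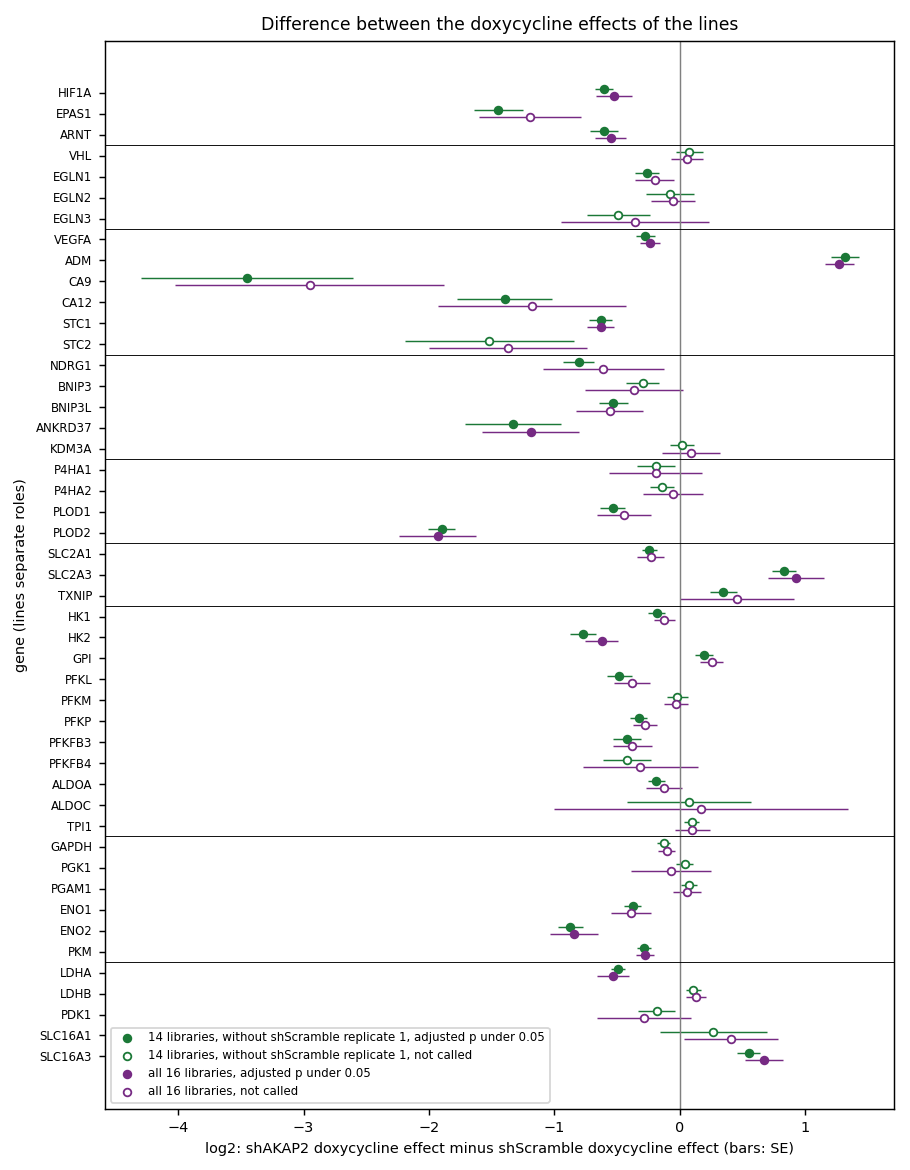
The shAKAP2 doxycycline effect minus the shScramble doxycycline effect for each gene, as a log2 difference with SE bars. Green leaves out the shScramble replicate 1 libraries and purple uses all 16; filled points have an adjusted p under 0.05, 29 genes in green and 13 in purple.

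With doxycycline, shAKAP2 against shScramble cells gave 6 of the 47 genes higher and 21 lower, where 40.2% of all genes tested were called, 18.7% higher and 21.5% lower. Libraries did not overlap for 7 members above and 24 below, beside 18.2% and 19.6% of all genes tested. ADM, SLC2A3, GPI, PFKM, LDHB and SLC16A3 were higher in shAKAP2 cells. All 3 transcription factor genes, EGLN1, EGLN3 and 4 of 6 secreted and pH-regulating targets were among the lower genes. The 4 with the smallest p were VEGFA (log2 fold change -0.78), ADM (1.11), STC1 (-0.83) and GPI (0.57, SE 0.0631, edgeR adjusted p = 5.29e-07). PLOD2 was lower by a log2 fold change of -2.15 (SE 0.226, edgeR adjusted p = 2.84e-06), CA12 by -2.21 and CA9 by -2.73. CA9 moved to -1.86 and lost its call without shScramble replicate 1 with doxycycline, where CA12 had -1.66, and BNIP3, at -0.48, and PLOD1 lost theirs too. Without the shScramble replicate 1 libraries 9 genes were higher and 26 lower, where 43.5% of all genes tested were called.

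Without doxycycline the lines already differed in 8 of the 47 genes, 6 higher and 2 lower in shAKAP2 cells, where 18% of all genes tested were called, 8.65% higher and 9.31% lower. Libraries did not overlap for 7 members above and 4 below, beside 13.3% and 12.2% of all genes tested. VEGFA was lower (log2 fold change -0.54, SE 0.0573, edgeR adjusted p = 2.6e-06), as was EGLN3. HK2 was higher in shAKAP2 cells without doxycycline (0.77, SE 0.0938, edgeR adjusted p = 1.51e-05), with no overlap between the lines. PFKM had 77.7, 81.1, 78.5 and 74.5 CPM in shAKAP2 cells with doxycycline and 74.7, 77.5, 78.5 and 79.8 CPM without it. In shScramble cells PFKM had 58.4, 66.2, 65.8 and 59.3 CPM with doxycycline and 55.1, 63.3, 60.8 and 64.6 CPM without. PFKM was thus higher in every shAKAP2 library than in any shScramble library, by 0.35 without doxycycline (SE 0.0673, edgeR adjusted p = 0.00154) and 0.32 with it (SE 0.0674, edgeR adjusted p = 0.000739). GPI (0.32), GAPDH (0.22), SLC2A1 (0.25) and LDHB (0.19) were the other genes higher without doxycycline, and SLC2A1 and LDHB lost their calls under some alternatives. Without the shScramble replicate 1 libraries 12 genes were higher and 5 lower, where 26.4% of all genes tested were called, and HIF1A (0.15) and CA9 (1.59) were then among the higher genes.

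The shScramble replicate 1 libraries differed from the others of their groups chiefly upward in these genes. Replicate 1 was above all 3 other libraries for 36 of the 47 genes with doxycycline and for 39 without it. It was below all 3 for 7 and 4 genes. In shAKAP2 cells replicate 1 was above the other 3 for 11 and 10 genes and below them for 14 and 17. The same counts over all genes tested were not made. In shScramble cells replicate 1 exceeded the mean of the others by more than 2-fold for 10 genes with doxycycline (21.3%) and for 8 without (17%). The shares of all genes tested were 2.34% and 2.46%. In shAKAP2 cells replicate 1 exceeded the others by more than 2-fold for 1 gene with doxycycline, CA9, and for 0 without it. The shares of all genes tested were 0.257% and 0.116%. CA9 was near the limit of detection there, at 0.371 CPM against a mean of 0.0864 CPM. Each share of all genes was taken after adding 0.5 CPM to both values, unlike the counts of members. In shScramble replicate 1, ALDOC was 6.18-fold above the mean of the others with doxycycline and 6.53-fold without, from 21.6 and 20.5 CPM. CA9 was 4.45-fold and 7.18-fold above it, CA12 2.90-fold and 3.77-fold, and EGLN3 2.61-fold and 3.05-fold. NDRG1, TXNIP and PFKFB4 were also more than 2-fold above it in both conditions. SLC2A1 was below it, at 0.812 and 0.824 of the mean of the others, as was STC1, at 0.906 and 0.893. VEGFA stood at 0.965 of that mean with doxycycline and 1.05 without, ADM at 1.14 and 1.01, and HK2 at 0.782 and 1.17. These genes were named after their values were seen. What set these libraries apart is not given in the sources used here and was not tested.

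**Figure D5:**
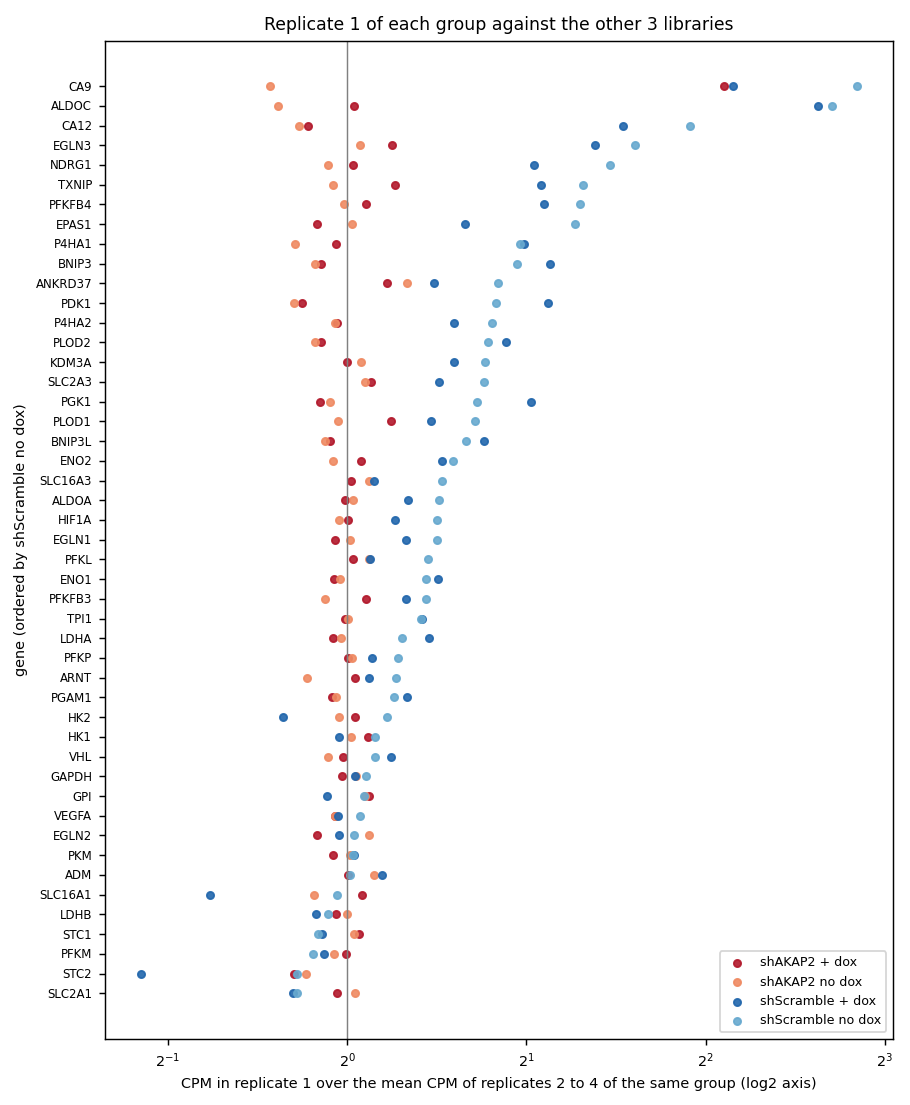
CPM in replicate 1 divided by the mean CPM of replicates 2 to 4 of the same group, for each of the 47 genes, on a log2 axis; the vertical line marks equality. In both shScramble groups most genes lie to the right of the line, up to 7.18-fold for CA9, while in the shAKAP2 groups nearly all lie close to it.

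Neighbouring genes of the same pathways were read from lists chosen with earlier results of these data known, so their shares are not independent of those results. In shAKAP2 cells, 4 of 37 tested other HIF targets rose and 8 fell with doxycycline, 32.4% in all, beside 28.3% of all genes tested (13.1% higher and 15.2% lower). PLAUR, the urokinase receptor, rose (log2 fold change 1.21). IGFBP3, which binds insulin-like growth factors (-1.25), and the chemokine receptor CXCR4 (-1.89) fell. Of 15 other HIF regulators 5 rose and 1 fell (40% called): CUL2 (0.27) and ELOC (0.24), which build the VHL ligase, and the ligase SIAH2 (0.36) rose, and the coactivator EP300 (-0.71) fell. The other isoforms of the glycolytic steps had 1 higher and 1 lower of 15 tested (13.3% called), BPGM (0.37) and the transporter SLC16A7 (-1.48).

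Pathways that branch from glycolysis had calls in both directions. In the pentose phosphate and glycogen list 6 of 15 tested genes rose and 2 fell (53.3% called, beside 28.3% of all genes tested), among them the pentose phosphate enzymes TALDO1 (0.76), PGD (0.43) and RPIA (0.64), which rose, and the glycogen phosphorylase PYGB (-0.49), which fell. In the list for pyruvate entry to mitochondria 3 of 17 rose and 5 fell (47.1% called). These included the pyruvate dehydrogenase subunits DLD (0.23) and DLAT (0.19), which rose, and PDHX (-0.23) and the phosphatase regulator PDPR (-1.01), which fell. Of 9 MondoA and TXNIP partners 3 rose and 1 fell (44.4% called): TXN (0.45), TXN2 (0.35) and ARRDC3 (1.55) rose, and the thioredoxin reductase TXNRD1 (-0.87) fell. Every value in these lists is a log2 fold change with over without doxycycline in shAKAP2 cells.

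Copies elsewhere in the genome took few reads. GENCODE release 29 names 147 pseudogenes after 16 of the members, and their counts came to at most 0.833% of the parent's, for BNIP3. Reads from a pseudogene and its parent can be split or dropped by the authors' counting, and 19 members overlap a gene on the opposite strand.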

How the data were processed

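Polyadenylated RNA was sequenced from 16 libraries in 4 groups. The authors deposited raw counts (integers) in a table of 57500 genes. The submitters' processing notes name STAR 2.5.2b, featureCounts, Subread 1.5.2 and GRCh38. Neither the gene annotation nor a strand setting is named there, so reads of overlapping genes on opposite strands may be mixed. No columns were left unused (0).

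Tests used edgeR 4.0.16 (R 4.3.3, with limma 3.58.1 for an alternative). filterByExpr kept 15566 genes, TMM gave the scaling, and a robust quasi-likelihood fit over the 16 libraries had 1 mean for each group and 12 residual degrees of freedom. The biological coefficient of variation was 14.4%. The 5 contrasts were doxycycline against none in each line, the difference between those effects, and the shAKAP2 line against the shScramble line in each condition. A gene was called where edgeR's quasi-likelihood p, after Benjamini-Hochberg adjustment across the 15566 genes, was under 0.05. Standard errors (SE) derive from the F statistic. CPM are counts relative to TMM-scaled library size, and RPKM divide them by merged exon length from GENCODE release 29, in which all 47 identifiers matched.

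The members and lists were chosen with earlier results of these data known. Values in every library were given for at most 14 members called in shAKAP2 cells by smallest p, up to 4 in each other contrast, and HIF1A, EPAS1, ARNT and VHL. From each list of neighbouring genes, up to 4 called genes with the smallest p were named; a few list genes are left unreported. The cause of any change was not tested.

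In simulated counts of 15566 genes, the shAKAP2 doxycycline contrast recovered 55.2% of genes changed 1.5-fold, 68.7% changed 2-fold and 84.8% changed 4-fold, with 6.08% false calls. The difference between the lines' effects recovered 25.4%, 59.7% and 78.8%, with 3.54% false calls. Far fewer genes were changed in the simulation than were called in the data, and the adjusted p depends on that share. These recoveries therefore need not hold for the data themselves. Alternatives were DESeq2 size factors, no filter, a filter of 10 counts in 4 libraries, limma-voom, the DESeq2 1.42.0 Wald test, only the groups of a contrast, the replicate number as a block, no robust shrinkage, each library left out, and both shScramble replicate 1 libraries left out.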

Additional observations from a re-analysis of the deposited data

Results flagged for a closer look

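Of 188 sets of 4 libraries, each being 1 gene in 1 group, 29 had a library far from the others by Dixon's 95% critical value, where chance gives about 1 in 20. Replicate 1 of shScramble cells with doxycycline accounted for 11 of them, and replicate 1 of shScramble cells without it for another 11.

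With doxycycline, shScramble replicate 1 was high for EGLN3 (27.87 CPM), CA9 (2.534 CPM), CA12 (65.29 CPM), KDM3A (85.28 CPM), P4HA2 (80.8 CPM), PLOD2 (174 CPM), TXNIP (483.9 CPM), PFKFB4 (32.27 CPM), ALDOC (21.55 CPM) and PGK1 (2104 CPM), and low for LDHB (532.1 CPM). Without doxycycline, shScramble replicate 1 was high for ARNT (52.62 CPM), CA9 (2.336 CPM), NDRG1 (429.5 CPM), BNIP3 (376.4 CPM), P4HA1 (245.5 CPM), P4HA2 (82.44 CPM), SLC2A3 (79.01 CPM), TXNIP (527.2 CPM), PFKFB3 (56.86 CPM), ALDOC (20.51 CPM) and PGK1 (1779 CPM). Values for both conditions stood apart for CA9, P4HA2, TXNIP, ALDOC and PGK1.

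The other 7 libraries that stood apart were spread over the groups. In shAKAP2 cells with doxycycline they were EGLN1 in replicate 4 (90.45 CPM, high), P4HA2 in replicate 3 (55.63 CPM, high), TXNIP in replicate 1 (376.6 CPM, high) and PGAM1 in replicate 1 (431 CPM, low). In shAKAP2 cells without doxycycline they were EGLN3 in replicate 3 (3.235 CPM, low) and ENO1 in replicate 4 (3510 CPM, high). In shScramble cells without doxycycline it was PKM in replicate 4 (2641 CPM, low).

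For 13 genes the test of the difference between the lines' doxycycline effects passed. The differences, on the log2 scale as the shAKAP2 effect minus the shScramble effect, were 1.27 for ADM, 0.93 for SLC2A3 and 0.67 for SLC16A3. On the lower side they were -1.93 for PLOD2, -1.19 for ANKRD37, -0.84 for ENO2, -0.63 for STC1, -0.62 for HK2, -0.55 for ARNT, -0.53 for HIF1A, -0.53 for LDHA, -0.28 for PKM and -0.24 for VEGFA.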

How the results depend on the processing

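No called gene's direction reversed under the alternatives run, and 12 of 17 calls in shAKAP2 cells, 11 of 13 between the lines' effects, 23 of 27 between lines with doxycycline, 5 of 8 without it and 0 of 4 in shScramble cells held under all of them. The calls lost under at least 1 alternative in shAKAP2 cells were ANKRD37, CA9, HK2, PFKP and SLC16A1, and ANKRD37 and VEGFA for the difference between effects. Between lines they were BNIP3, CA9, PKM and PLOD1 with doxycycline and EGLN3, LDHB and SLC2A1 without it. With only the groups of the contrast, 5 members rose and 23 fell in shAKAP2 cells, against 3 and 14 in the fit to all groups. Of all genes tested 43.5% were then called, against 28.3%. In shScramble cells 0 rose and 0 fell, against 1 and 3, where 0.25% of all genes tested were called, against 1.08%. That fit has fewer samples. Without both shScramble replicate 1 libraries, 5 members rose in shAKAP2 cells, 8 rose in shScramble cells, the difference between effects gave 5 higher and 24 lower, and the lines without doxycycline gave 12 higher and 5 lower. With no filter on low counts 0 members rose in shScramble cells and 1 was lower in shAKAP2 than in shScramble cells without doxycycline, where limma-voom also gave 1; the cause was not tested. At an unadjusted edgeR p under 0.05, 6 of the 47 members were past the threshold in shScramble cells, beside 1456 of 15566 genes tested.

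Leaving out 1 library at a time gave 2 to 3 members higher and 11 to 19 lower in shAKAP2 cells, and 0 to 5 higher and 2 to 3 lower in shScramble cells. It gave 3 to 4 higher and 8 to 21 lower for the difference between effects, 6 to 7 and 19 to 26 between lines with doxycycline, and 4 to 7 and 1 to 6 without it. The 21 came without shScramble replicate 1 without doxycycline, which also gave the 5 higher in shScramble cells; leaving out replicate 1 with doxycycline gave 2 there and 6 lower between lines without doxycycline, and leaving out shScramble replicate 4 without doxycycline gave 0. HK2 lost its call in shAKAP2 cells without shAKAP2 replicate 3 with doxycycline. Across the fits without 1 library, 22.6% to 32.4% of all genes tested were called in shAKAP2 cells and 0.634% to 2.58% in shScramble cells. The difference between effects had 14.1% to 22.8%. Between lines the shares were 34.8% to 42.5% with doxycycline and 10.5% to 24.8% without it.

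Deviations of same-numbered libraries from their group means correlated at 0.00496 to 0.0826 in shAKAP2 cells and 0.0431 to 0.537 in shScramble cells (replicates 1, 3 and 4 above 0.1, and replicates 1 and 3 best with their own number). As not every pair was above 0.1 in either line, the numbers were not taken as a pairing. The main fit therefore leaves out what shScramble replicates 1 and 3 shared across conditions, at correlations of 0.537 and 0.305. With the replicate number as a block, 3 members rose and 17 fell in shAKAP2 cells, 1 and 3 in shScramble cells, and 3 and 14 for the difference between effects. The shares of all genes tested called there were 29.2%, 1.11% and 18.7%. That block gives each number the same effect in both lines. Between the lines, however, same-numbered libraries correlated at only -0.174 to 0.0455. The block therefore cannot take up a deviation found in shScramble cells alone, such as that of replicate 1. Its counts cannot decide whether shScramble libraries of the same number belong together.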
